A study of Bos taurus with 20 samples.

Results

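The non-adipogenic (N) clones are bovine cell populations that each grew from 1 sorted mesenchymal stem cell (MSC) and that did not form fat cells in a test of adipogenic differentiation (per the labels, no staining with the lipid dye Oil Red O). They are the 10 libraries whose labels say non-adipogenic, of 20 libraries in the series, and the other 10, from adipogenic (A) clones, were not compared with them here. RNA was taken from undifferentiated cells and sequenced as 1 library per clone. The MSCs had been grown as plastic-adherent cells from inguinal or perirenal fat of young Holstein Friesian x Aberdeen Angus calves, and single cells had been sorted and expanded in partly conditioned medium with FBS and bFGF. No transgene or other treatment was used, and which region each calf's fat came from is not given in the sources used here. Animal 17 gave 1 N clone (17-23, written as animal and clone number) and animal 20 gave 1 (20-15). Animal 22 gave 4 (22-5, 22-9, 22-17 and 22-18), and animal 23 gave 4 (23-10, 23-22, 23-23 and 23-74). Each clone was sequenced once, so a single value has no replicate error, and for animals 17 and 20 the animal and the clone cannot be told apart.

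MSCs of fat are fibroblast-like cells that lie around vessels and in the connective tissue of the depot, and in culture they can be driven towards fat, bone or cartilage. A clone carries forward whatever state its founder cell had, along with what it acquired during expansion. The lining of the abdominal cavity, the mesothelium, covers fat depots of the abdomen and is marked by simple keratins and WT1, while pericytes and smooth muscle cells are marked by contractile proteins. Fibroblasts also keep a record of their position in the body in HOX and T-box transcription factors.

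Total counts per clone on named genes ran from 14908802 to 43111345 with a median of 16316704, with clone 22-18 the deepest, and 22.9% to 29.5% of them fell on the 100 genes with the largest counts. Levels are given as CPM, a gene's counts relative to the total of its library, which edgeR had scaled by a TMM factor. A gene was kept where it had at least 10 counts in 3 or more N clones, which held for 13820 of the 21523 genes with any count. Spread among clones is the SD of log2 CPM with a prior count of 2, and its median over the kept genes was 0.40, with 10% of genes under 0.19 and 10% over 1.45. At these depths, 3 counts are worth 0.08 to 0.20 CPM, so that values below this range carry almost no information.

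The library of clone 22-9 stood apart. In 34 genes with at least 20 CPM in clone 22-17 and at most 0.5 CPM in clone 22-5, the level in 22-9 was a near-constant share of the level in 22-17, with a median ratio of 0.345, a 10th to 90th percentile of 0.312 to 0.378, and 32 of the 34 genes within 0.05 of the median. MYLK, the kinase that phosphorylates myosin light chain, was at 0.467 CPM in 22-5, 483 in 22-9 and 1383 in 22-17, a ratio of 0.349. KIF26B, a kinesin family gene, was at 0, 20.4 and 53.5 CPM in the same clones, and the sodium channel gene SCN3A at 0, 7.30 and 23.1 CPM. The reverse did not hold: in 54 genes high in 22-5 and low in 22-17, the ratio of 22-9 to 22-5 had a median of 0.727 and a 10th to 90th percentile of 0.0809 to 1.67. Of 408 ordered sets of 3 clones with at least 20 such genes, 1 had an interquartile range under 0.2 of its median, the set just described, and the next smallest was 0.415. The cause was not tested, nor was whether this library holds RNA of a further clone, which would change what each level in 22-9 means. This limit holds for every level in 22-9, also in genes that missed the cut-offs of the 34, such as NT5E, TNC and NR5A1. The main counts that rest on 22-9 are given with and without it.

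**Figure D1:**
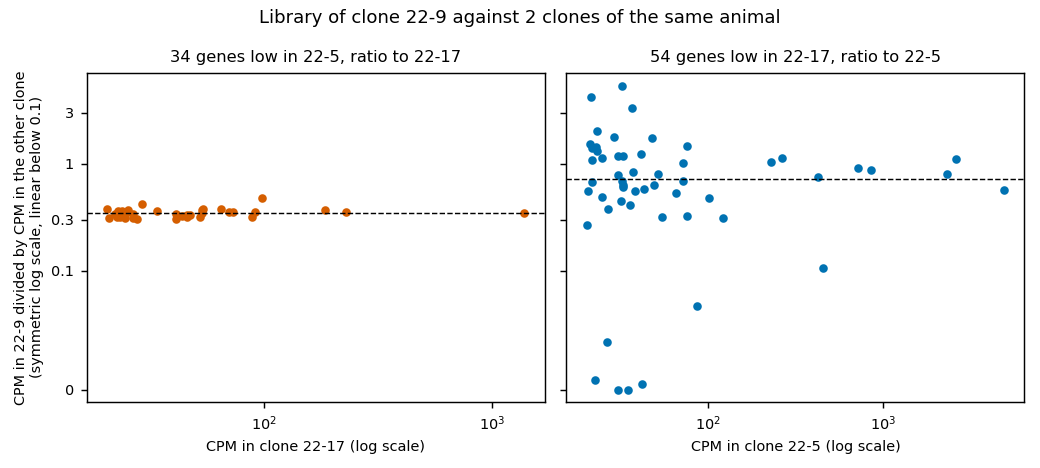
Level of single genes in clone 22-9 divided by the level in another clone of animal 22 (vertical axis, symmetric log scale) against the level in that other clone (horizontal axis, CPM, log scale); each point is a gene and the dashed line is the median. The 34 genes that were high in 22-17 and low in 22-5 lie in a narrow band about 0.345, while the 54 genes that were high in 22-5 and low in 22-17 scatter about 0.727.

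The 20 genes with the largest mean CPM held COL1A1, COL1A2 and COL3A1, which encode the chains of fibrillar collagens I and III, COL6A1 and COL6A2 of the microfibrillar collagen VI, the matrix proteins SPARC, FN1 and THBS1, and the gelatinase MMP2. Beside them stood the intermediate filament protein VIM, the actins ACTB and ACTG1, the actin-binding FLNA and TPM1, the scaffold protein AHNAK, the endocytic receptor LRP1, the elongation factor EEF1A1, and COX1 and COX3, which are encoded by the mitochondrial genome. CPM is not divided by transcript length here, so this order is one of shares of reads and not of molecules.

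COL1A2 took 1.60% of the counts of a clone on average, at 11728 CPM in 20-15, a median of 15308 and 24079.8 in 22-18. COX1, a subunit of cytochrome c oxidase, had the smallest spread of the 20, at 13185 to 19761 CPM with an SD of 0.20 on the log2 scale. VIM, the mesenchymal filament protein, lay between 3385 CPM in 22-5 and 13661 in 20-15. In all 10 clones, 9 genes ranked among the top 20 of that clone, and 44 genes ranked among the top 100, of 198 genes that did so in at least 1 clone.

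A few of the genes with the largest counts varied by more than 5-fold. THBS1, a matricellular glycoprotein that activates TGF-beta, was at 12527 CPM in 22-17 and 8792 in 22-18 against 736 to 1235 CPM in the clones of animal 23. FN1, fibronectin, lay between 1609 CPM in 23-22 and 10903 in 17-23. COL6A1 and COL6A2 were both lowest in 22-5, at 903 and 797 CPM, and both highest in 22-18, at 7242 and 5429.5 CPM. These ranges were 8.02-fold and 6.81-fold, while COL1A1 and COL1A2 spanned 2.51-fold and 2.05-fold.

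Of 3994 genes with a mean of at least 50 CPM, 814 had an SD of log2 CPM under 0.2, and the smallest belonged to GGNBP2, at 55.9 to 62.9 CPM with an SD of 0.05. Others of the 10 smallest were ARAF, a RAF kinase, PRKCSH, the glucosidase II subunit, the splicing protein SMU1, the neddylation factor DCUN1D1, the helicase DDX1, the deubiquitinase USP48, the sorting nexin SNX5 and the phosphatase activator PTPA, with SDs of 0.06 to 0.08. All 10 of them had a coefficient of variation of 5.74% or less. RPL4 and TOP2B, to which the study normalised its qPCR, had larger SDs than these 10, as did GAPDH and ACTB, which are common references elsewhere. RPL4, a ribosomal protein, had an SD of 0.18, GAPDH 0.26, ACTB 0.32 and TOP2B 0.39, and TOP2B was at 248 CPM in 20-15 against 104 CPM in 23-74.

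Taken over all kept genes, the N clones were not equally alike. Pearson's r of log2 CPM, given as a description over 13820 genes, was 0.965 for the closest pair (23-22 and 23-74) and 0.798 for the most distant (20-15 and 22-5). The clones of animal 23 formed a tight set, with r of 0.943 to 0.965 over 6 pairs and 379 to 656 genes that differed by more than 4-fold in a pair. By r, the clones of animal 22 fell into pairs. Clone 22-5 was nearest to 22-9 (0.944) and 22-17 nearest to 22-18 (0.956), whereas 22-5 and 22-18, of the same animal, correlated at 0.847 with 1688 genes more than 4-fold apart. That is further apart than 22-17 was from any clone of animal 23 (0.923 to 0.940). By genes more than 4-fold apart the pairing did not hold for 22-9. It had 635 such genes with 22-17 (r of 0.921) and 689 with 22-5.

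Clones 17-23 and 20-15 came from different animals and were each other's nearest neighbour, at 0.928 with 745 genes more than 4-fold apart, while each of their 16 pairs with a clone of animals 22 or 23 was at 0.904 or less. The first principal component, 31.8% of the variance, had 20-15 and 17-23 at one end and 22-5 and 22-9 at the other. The second, 21.9%, had 22-5, 22-9, 20-15 and 17-23 on its positive side and the other clones on its negative side. The third, 14.5%, separated 22-17 and 22-18 from the clones of animal 23. NR5A1, a steroidogenic nuclear receptor, had the largest loading at the end of 22-17 and 22-18. Without clone 22-9 the first 3 components held 33.4%, 21.5% and 15.1%.

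**Figure D2:**
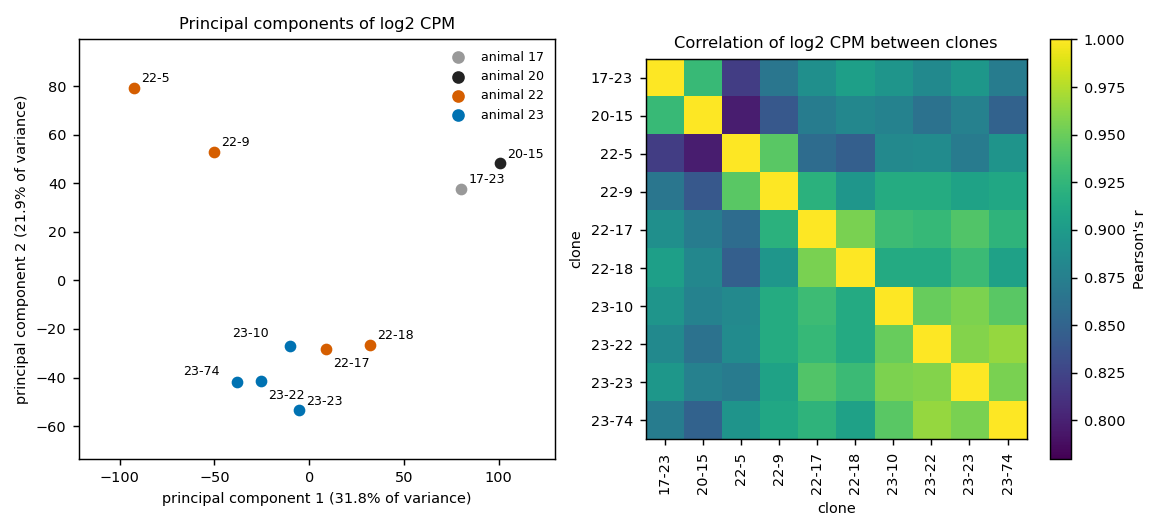
Left, scores of the 10 N clones on the first 2 principal components of log2 CPM over 13820 genes, 1 point per clone, coloured by animal; right, Pearson's r between each pair of clones. The clones of animal 23 lie together, those of animal 22 lie in 2 places, and 17-23 and 20-15 share an end of the first component.

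Among the 8 clones of animals 22 and 23, 25.9% of the squared distances between clones lay between the animals (pseudo-F of 2.1, one-sided exact permutation test over 35 splits, p = 0.0286, the smallest the design allows). Leaving out 22-9 gave 25.3% (p = 0.0857), and leaving out any 1 clone of animal 23 gave 25.5% to 27.8% (p = 0.0857 to 0.143, same exact permutation test), so the call rested on each of these 5 clones. Clones of animal 22 were further from each other than clones of animal 23. The median SD of log2 CPM was 0.35 over the 4 clones of animal 22 and 0.26 over the 4 of animal 23, and 2078 against 1126 of the 13820 genes had an SD over 1. Without 22-9 the median for animal 22 was 0.37, and 2260 genes had an SD over 1. The difference between the 2 animals in spread was not tested.

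The most variable genes went from near absence in some clones to high abundance in others. The variance of log2 CPM was largest for KRT8, a keratin of simple epithelia, at 4946 CPM in 22-5 and 2811 in 22-9 and at 0 to 2.94 CPM in the other 8 clones, with 0 counts in 22-17 and 22-18. KRT19, another simple-epithelial keratin, followed at 2342 and 1861 CPM against 0 to 3.48 CPM. PODXL, a sialomucin of podocytes and mesothelium, was at 2626 and 2926 CPM, and reached 16.3 CPM at most elsewhere, in 23-10. In 17 of the 40 most variable genes the 2 highest clones were 22-5 and 22-9, and in 5 they were 17-23 and 20-15. Among the first 100 these counts were 31 and 15. Without clone 22-9, WT1 and XIST led the order, and 32 of the 40 genes remained. At the edge of the 40, the variance was 13.02 for MAP3K9, the last within, and 12.85 for FAM101A, the first outside.

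The genes with 22-5 and 22-9 on top covered more than keratins. They included BNC1, a zinc finger protein of epithelia (229.6 and 236 CPM), SLC5A1, a sodium-glucose transporter (455 and 48.2 CPM), NDNF, a secreted neurotrophic factor (36.4 and 119 CPM), the phospholipid flippase ATP9A (167 and 160.0 CPM) and the kinase MAP3K9 (101 and 48.3 CPM). The levels of the pair were unequal in some of them. SLC5A1 was higher in 22-5, and GPM6A, a neuronal and mesothelial membrane glycoprotein, was at 31.96 CPM in 22-5 and 169 in 22-9. ITGA7, the laminin receptor of muscle, was shared more widely, at 307 CPM in 22-5, 349 in 22-9 and 185 in 23-74, and at 0.431 CPM in 20-15.

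The genes with 17-23 and 20-15 on top included secreted signals. SST, the hormone somatostatin, was at 837 and 986 CPM in them, at 12.3 in 22-17 and 11.9 in 22-18, and at 0.122 to 2.39 CPM in the clones of animal 23. SFRP2, a secreted Wnt modulator, was at 1219.5 and 1777 CPM. SFRP2 was lowest by far in 22-18, with 0.0540 CPM, while the other 7 clones held 15.8 to 251 CPM. CCL2, the monocyte chemokine, was at 162 and 228 CPM in these 2 clones and at 102 CPM in 22-18, against 0 to 6.67 CPM in the other 7. MEOX2, a homeobox gene of paraxial mesoderm, had the same 3 clones on top, at 29.0, 48.3 and 34.0 CPM.

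Other genes among the 40 stood out in animal 23. KIT, the receptor for stem cell factor, was at 125, 44.2, 76.3 and 37.6 CPM in its clones and at 0 to 0.701 CPM in the other 6. PDE3B, a cyclic nucleotide phosphodiesterase, was at 81.4 to 90.2 CPM in animal 23 with little spread, at 12.04 and 12.6 CPM in 22-5 and 22-9, and at 0.0616 CPM in 20-15. ASIP, the agouti signalling protein of coat colour, was at 50.4, 28.5 and 22.7 CPM in 3 clones of animal 23 and at 0 counts in the fourth, 23-74. GJA5, a gap junction protein of arteries and atria, was at 0 CPM in 17-23 and 0.801 in 20-15 and between 6.84 and 423 CPM in the other 8 clones.

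XIST, the RNA that coats the inactive X chromosome, was at 0 counts in 17-23 and 20-15 and at 183 to 296 CPM in the 8 clones of animals 22 and 23. Its SD of log2 CPM was 0.31 in animal 22 and 0.22 in animal 23, so that its spread lay between these 8 clones and the 2 at 0 counts.

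**Figure D3:**
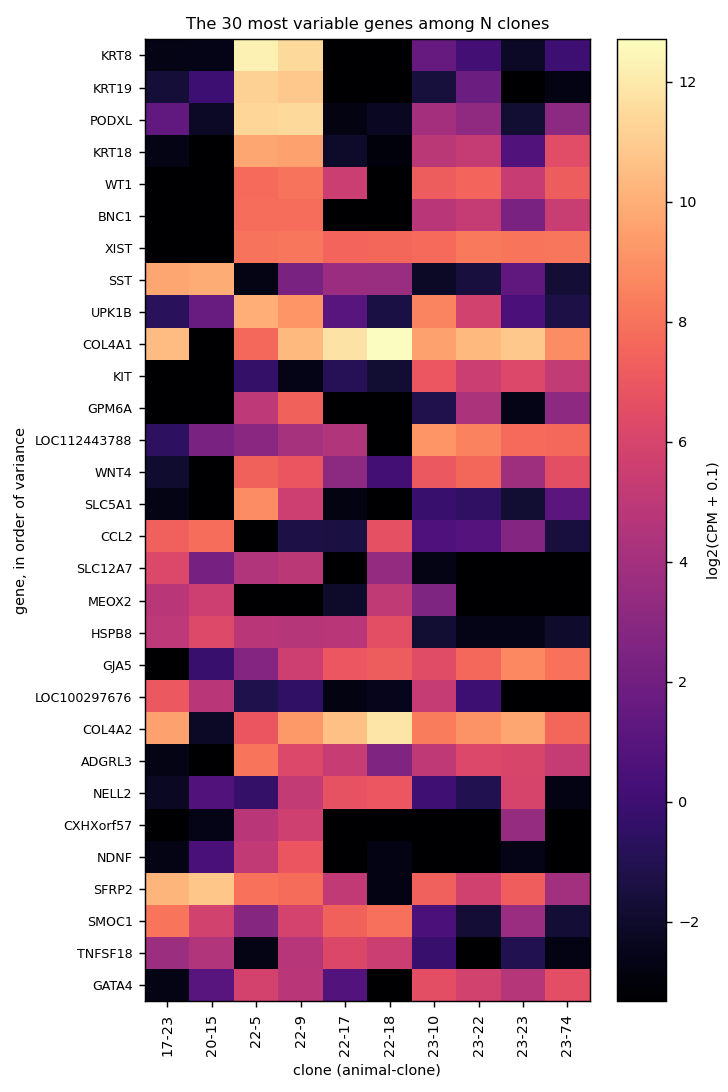
The 30 genes with the largest variance of log2 CPM among the 10 N clones, in order of variance from the top, with 1 column per clone and colour for log2(CPM + 0.1). Blocks of bright cells mark genes that were high in 22-5 and 22-9 (KRT8, KRT19, BNC1), in 17-23 and 20-15 (SST, SFRP2) or in the 4 clones of animal 23 (KIT).

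In 57 genes every clone was at 10 CPM or more or at 0.5 CPM or less, with both states present, and the clones that were on fell into 20 patterns. The most frequent, with 16 genes, was 22-5 and 22-9 on and the rest off, and it held LRRN4, a membrane protein of mesothelium, ALDH1A2, the main retinoic acid synthesising enzyme of the embryo, the growth factor BMP7, the polarity protein CRB2, the tetraspanin TSPAN7 and the fibrinogen chain FGG. The next, with 11 genes, was 20-15 off and the other 9 clones on. Without clone 22-9 the most frequent pattern was 22-5 alone on, with 26 genes.

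In clone 20-15, some genes that were on in every other N clone had few or no counts. COL4A1 and COL4A2 encode the chains of basement membrane collagen IV and lie head to head on 1 promoter region. COL4A1 had 0 counts in 20-15 and COL4A2 had 2, while the other 9 clones held 200.3 to 6688 CPM and 119 to 3762 CPM, with 22-18 at the top of both. NCAM1, the neural cell adhesion molecule, had 4 counts in 20-15 and 73.7 to 246 CPM elsewhere. The same pattern held for the cadherin CDH8, the neuropeptide NTS, the semaphorin SEMA5A and the ubiquitin ligase NEDD4L. FLT1, a VEGF receptor, was also lowest there, at 0.739 CPM against 11.5 to 131 CPM. In 3 further genes 22-5 was the clone that was off, among them the surface protein THY1 and the junction molecule JAM3. Both were among the 34 genes with a near-constant ratio of 22-9 to 22-17, at 0.353 and 0.331, so their 22-9 levels carry that limit.

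Lists of marker genes gave each clone's standing along the lineages that MSCs can take. Of 263 list genes that were kept, every list had a median SD of log2 CPM above the 0.40 of all kept genes but for the reference genes (0.29). Among lists with more than 1 kept gene, the largest median belonged to the mesothelial and simple epithelial list (4.70 over 10 kept genes) and the smallest among the lineage lists to the haematopoietic list (0.79 over 3). The counts and medians describe lists that were chosen with earlier results of these data known.

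Of the 10 genes in the list of MSC surface genes, 6 had their lowest level in 22-5. ITGB1 (CD29), CD44, ALCAM, PDGFRA and PDGFRB passed 50 CPM in all 10 clones. NT5E (CD73) was at 0.526 CPM in 22-5, 49.4 in 22-9 and 33.3 to 410.0 CPM in the other 8 clones. THY1 (CD90) was at 0.409 CPM in 22-5 and 13.0 to 205 CPM elsewhere, and ENG (CD105) at 19.8 CPM in 22-5 and 169.6 to 694 CPM elsewhere. CD44, the hyaluronan receptor, differed from these and was lowest in 17-23 and 20-15, at 236 and 301 CPM against 659 to 1067 CPM. MCAM and VCAM1, of pericytes and activated stroma, were at or below 3.83 and 28.1 CPM in all clones. THY1 was among the 34 genes with a near-constant ratio of 22-9 to 22-17, at 0.353, so its level in 22-9 carries the limit given above. NT5E was outside those genes because its 0.526 CPM in 22-5 passed their cut-off of 0.5 CPM. Its level in 22-9 carries the same limit.

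Mesothelial genes were highest in the clone that had the lowest MSC surface genes, 22-5, and in 22-9. Their summed level was 10802 CPM in 22-5 and 7714 in 22-9, 88.4 to 663 CPM in the clones of animal 23, and 12.2 to 52.9 CPM in 17-23, 20-15, 22-17 and 22-18. In 11 of the 14 genes with 10 counts in any clone, the 2 highest clones were 22-5 and 22-9. MSLN, mesothelin, was at 433 and 354 CPM in the pair and at 2.85 to 52.0 CPM elsewhere, and LRRN4 at 725 and 657 CPM against 0 to 0.263 CPM. Clones of animal 23 carried part of this set. WT1, the transcription factor of mesothelium and kidney, was at 41.0 to 185 CPM in them and at 44.9 CPM in 22-17, with 0 counts in 17-23, 20-15 and 22-18. KRT18 reached 87.8 CPM in 23-74 and UPK1B, a uroplakin, 389 CPM in 23-10, while KRT8 stayed at 0.126 to 2.94 CPM in all 4. CALB2, a mesothelial calcium-binding protein, had 0 counts in every clone, and CDH1 and EPCAM, adhesion proteins of sealed epithelia, were at 8.24 and 0.742 CPM at most.

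Of 13 smooth muscle and pericyte genes with 10 counts in any clone, 6 were highest in 22-18 and 3 in 22-17, and 8 were lowest in 22-5. The summed level of the smooth muscle and pericyte list was 13049 CPM in 22-18, 9408 in 22-17 and 7790.4 in 23-74, and 1222 CPM in 22-5. ACTA2, smooth muscle actin, was at 5962 CPM in 22-18, 4426 in 23-74, 2942 in 22-17 and 103 in 22-5. Calponin CNN1 and gamma smooth muscle actin ACTG2 peaked in 22-18 as well, at 454 and 2180.2 CPM, and were at 26.7 and 9.00 CPM in 22-5. MYLK stood out in 22-17, and the next highest clone but for 22-9 held 88.1 CPM. The late markers MYH11 and MYOCD were at or below 2.19 and 0.378 CPM in every clone, and RGS5 of pericytes reached 3.18 CPM, in 23-10.

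Tendon genes had the same clone, 22-17, at the top for TNC and SCX. TNC, tenascin C, was at 7206 CPM in 22-17 and 6669.7 in 22-18, 2545 in 22-9 and 65.4 to 815 CPM in animal 23, and at 17.5 CPM in 20-15 and 10.3 in 22-5. SCX, the tendon transcription factor, reached 10.2 CPM in 22-17 and 0.0810 to 2.85 CPM elsewhere, and FMOD, fibromodulin, lay at 401 to 2539 CPM in all clones. TNMD and THBS4, of mature tendon, had 0 counts in every clone. DES, the muscle filament desmin, was at 133 CPM in 22-17, 87.2 in 22-18 and 18.2 to 128 CPM in animal 23, and at 2.11, 0.123 and 0.643 CPM in 17-23, 20-15 and 22-5. The myogenic factors MYOD1, MYF5, MYOG and MYF6 had fewer than 10 counts in each clone.

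Of the bone and cartilage lists, 5 of 14 and 7 of 16 genes were kept. RUNX2, the master regulator of bone, was at 60.1 to 141 CPM in all clones, and SOX9 of cartilage was at 6.22 CPM in 20-15 to 59.1 CPM in 22-5. SPP1, osteopontin, was abundant in all clones, at 602 CPM in 23-10 to 3750.2 in 22-17, and COL11A1, a fibrillar collagen of cartilage, at 317 to 1303 CPM. ALPL, the alkaline phosphatase of mineralising cells, had 344 counts (19.1 CPM) in 17-23 and at most 3 in each of the other 9 clones. BMP2 was at 102 CPM in 22-5 and 45.2 in 22-9 and as low as 0.263 CPM in 23-22. BGLAP, DMP1, MEPE and SOST of bone and COL2A1, COL9A1, COL10A1 and MATN1 of cartilage had fewer than 10 counts in each clone, and SP7 was at 0.493 CPM or less.

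Markers of blood cells were low, while those of vessel cells ranged from fewer than 10 counts to over 100 CPM. The 11 haematopoietic genes in the table summed to 2.14 to 14.7 CPM, with 20-15 the highest, and PTPRC (CD45), the pan-leukocyte marker, had fewer than 10 counts in every clone. CD14 reached 6.59 CPM in 20-15. Among endothelial genes, CDH5, KDR, TIE1 and CLDN5 had fewer than 10 counts in each clone, PECAM1 (CD31) was at 7.21 CPM in 20-15 and 0 to 0.818 CPM elsewhere, ERG, an endothelial transcription factor, reached 26.6 CPM in 23-23 and 13.9 in 17-23, and VWF was at 26.6 and 30.3 CPM in 17-23 and 20-15 against 0.234 to 6.05 CPM. As the libraries are bulk RNA, fewer cells of a type and less RNA per cell cannot be told apart. NES, nestin, was the most uneven of the neural list within animal 23, at 16.4 CPM in 23-23 and 1262 in 23-74, and SOX10 of Schwann cells had fewer than 10 counts in each clone.

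Adipogenic regulators differed between the clones. PPARG, the master regulator of fat cells, had 247 counts (6.67 CPM) in 22-18 and 0 to 1.22 CPM elsewhere, and CEBPA, its partner, had 30 counts at most, in 17-23. CEBPB and CEBPD, the early factors of adipogenesis, were at 14.0 to 80.6 and 43.4 to 149.7 CPM, both highest in 17-23. EBF1, another factor of the lineage, was at 59.4 CPM in 20-15 and 3.45 in 22-5. ZNF423, a preadipocyte determination factor, reached 12.4 CPM in 22-18 and 6.05 in 17-23 and was at 0 to 0.156 CPM in animal 23. LPL, lipoprotein lipase, was at 90.9 CPM in 20-15, 16.3 in 22-17 and 0 counts in 22-5, and FABP4, the fatty acid-binding protein, at 25.4 CPM in 20-15 and 0.409 in 22-5. In 20-15, the clone highest for LPL and FABP4, PPARG and CEBPA had 0.370 and 0.123 CPM. The whole list summed to 431 CPM in 20-15 and 112 in 22-5. ADIPOQ, LEP and PLIN4 of mature adipocytes had fewer than 10 counts in each clone.

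Among genes known to hold back adipogenesis, some were even and others were not. CTBP1, a corepressor, had an SD of 0.18 and lay at 57.2 to 81.9 CPM. GATA2 split the clones, at 55.4, 126, 123 and 53.9 CPM in 17-23, 20-15, 22-5 and 22-9, 18.5 in 22-17, 2.38 in 22-18 and 1.25 to 2.38 CPM in animal 23. Its relative GATA3 was at 30.01 CPM in 20-15 and 0 to 1.59 CPM elsewhere. WNT5A, a non-canonical Wnt ligand, was at 192 CPM in 22-5, 162 in 22-18, and 1.05 in 20-15. Of the early progenitor genes, DPP4 and PI16 had fewer than 10 counts in each clone, CD34 was at 135 CPM in 20-15, 62.4 in 22-9 and 5.09 to 38.0 CPM in the others, and WNT2 at 43.0 and 40.1 CPM in 17-23 and 20-15 against 0 to 4.25 CPM.

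**Figure D4:**
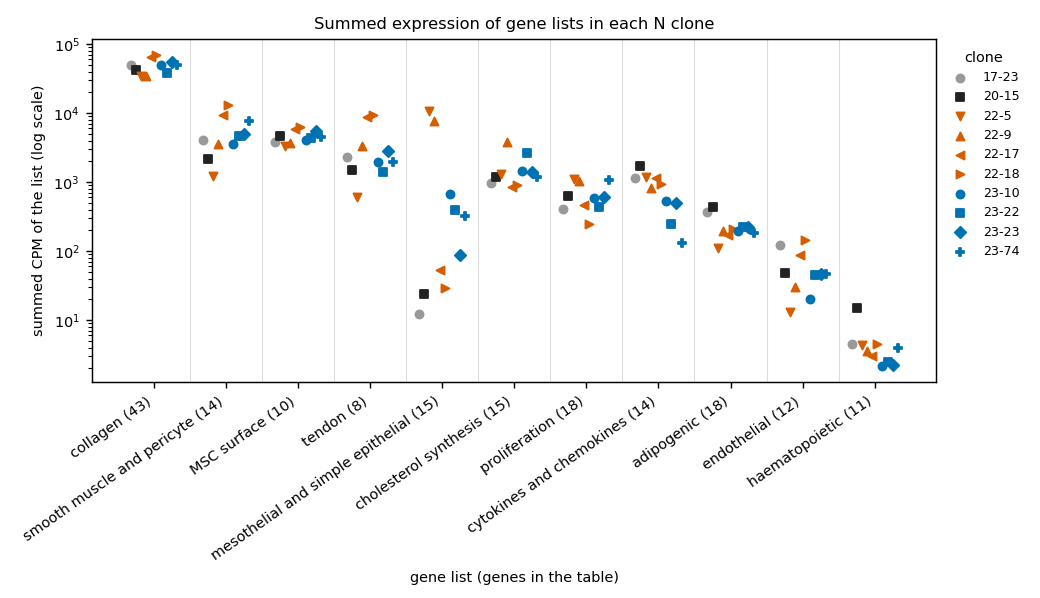
Summed CPM (vertical axis, log scale) of 11 gene lists in each of the 10 N clones, with the number of list genes in the table in brackets; markers differ by clone and colours by animal. The mesothelial and simple epithelial list spans the widest range, from 12.2 CPM in 17-23 to 10802 in 22-5, and the haematopoietic list stays at 14.7 CPM or less.

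Proliferation genes had the same clones at their ends. Of 18 genes of DNA replication and mitosis, 17 were lowest in 22-18, 8 were highest in 22-5, 7 in 23-74 and 3 in 22-9. MKI67 was at 210.0 CPM in 22-5, 187 in 22-9, 166 in 23-74 and 26.6 in 22-18, and the ribonucleotide reductase subunit RRM2 was at 106 CPM in 23-74 and 12.4 in 22-18. The list's summed level ran from 246 to 1090.2 CPM. CDK inhibitors, which hold back the cell cycle, had these clones at their ends in both orders. CDKN1A (p21) was highest in 22-5, at 385 CPM, and lowest in 22-18, at 123 CPM, whereas CDKN2A (p16 and ARF) was lowest in 22-5, at 37.1 CPM, and highest in 22-18, at 128 CPM. CDKN1B (p27) was at 65.8 CPM in 20-15 and 12.9 to 29.5 CPM elsewhere. IGFBP3 was at 90.7 and 61.0 CPM in 17-23 and 22-18 and 0 to 1.63 CPM in the other 8, and its relative IGFBP5 at 596 CPM in 23-74 and 0.327 to 139 CPM elsewhere.

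Cholesterol synthesis genes were highest in 22-9 in 14 of 15 cases and in 23-22 in the other. HMGCS1, the synthase before HMG-CoA reductase, was at 718 CPM in 22-9, 475 in 23-22 and 67.6 to 255 CPM in the other 8. Squalene epoxidase SQLE was at 321 and 243 CPM in these 2 clones against 40.9 to 121 CPM. Hypoxia and glycolysis genes were more even, with a median SD of 0.45 over 10 kept genes, and CA9, carbonic anhydrase of hypoxic cells, was at 17.0 CPM in 22-9 and 0.0270 to 1.17 CPM elsewhere.

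Cytokine genes varied between clones as well. CXCL5, a neutrophil chemokine, was at 907 CPM in 22-5 and 16.6 in 23-74. CXCL12, the chemokine that retains blood progenitors, was at 556 CPM in 20-15, 509 in 22-17, 11.1 in 23-10 and 1.87 in 22-5. CXCL8 was highest in 17-23, at 52.8 CPM, and lay at 0.789 to 3.49 CPM in animal 23. Of the interferon-induced genes, IFIT5 was even (an SD of 0.18), and 7 of the 12 with 10 counts in any clone were highest in 20-15. IRF7, a regulator of interferon genes, was instead highest in 22-5, at 122 CPM, with 38.2 in 22-9 and 0.420 to 14.5 CPM elsewhere.

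Of 22 positional transcription factors with 10 counts in any clone, 17-23 and 20-15 were the 2 highest in 3, 22-17 and 22-18 in 3, and 22-5 and 22-9 in 2. The calf and the fat region it gave cannot be told apart here. For 17-23 and 20-15, the clone cannot be told apart from these either. Clones of animal 22 share a calf, as do those of animal 23. TBX15, of limb and trunk mesenchyme, was at 28.6 and 59.2 CPM in 17-23 and 20-15 and 0 to 1.30 CPM elsewhere, and TBX5, of the forelimb and heart, was at 4.88 and 6.53 CPM with 0 counts in the other 8 clones. The distal HOX gene HOXA13 was at 34.6 and 28.6 CPM in the pair and 0.117 CPM in 22-5, with 11.9 CPM in 22-18. TBX3 was at 166 and 96.1 CPM in 22-5 and 22-9 and 10.6 to 33.3 CPM elsewhere. GATA4, of heart and mesothelium, was at 56.6 and 29.2 CPM in that pair and 25.4 to 97.7 CPM in animal 23, against 0 to 1.97 CPM in 17-23, 20-15, 22-17 and 22-18. FOXD1, of stromal progenitors, was at 13.3 and 9.23 CPM in 22-17 and 22-18 at 3.96 in 22-9, and at 1 count or fewer in the other 7.

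HOX genes split clones of 1 animal. HOXA9 was at 38.1 CPM in 22-18 but 2.28, 1.55 and 3.27 CPM in its 3 sister clones, and at 52.4, 38.7 and 38.8 CPM in 3 clones of animal 23 but 0.245 CPM in 23-10. HOXA10 had its low values in the same clones, at 0.183 CPM in 23-10 and 0.117 in 22-5. In contrast HOXB7, HOXB6 and HOXC6 had SDs of 0.36, 0.47 and 0.50 over all 10 clones. Clone 17-23 was the lowest for HOXB2, HOXB3 and HOXB4, at 1.17, 2.497 and 2.55 CPM against 19.7 to 35.7, 7.83 to 12.3 and 13.3 to 21.2 CPM. Of 34 HOX genes with 10 counts in any clone, 15 were lowest in 22-5.

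Of 32 collagen genes with 10 counts in any clone, 7 were highest in 20-15, 6 in 22-18, 5 in 22-5 and 5 in 22-17. COL6A3, the third chain of collagen VI, was at 25.7 CPM in 22-5 and 87.7 in 17-23 and reached 2084 CPM in 23-74. COL8A1, of vessel and corneal basement layers, was at 1435 CPM in 20-15 and 349.8 in 17-23 against 10.3 to 89.6 CPM. COL21A1 was at 110.2 CPM in 20-15, 5.33 in 17-23, 3.77 in 22-9 and 0 counts in 6 clones. COL4A5, a basement membrane chain of kidney, was at 54.5 CPM in 22-5 and 17.2 in 22-9 and 0 to 1.23 CPM elsewhere. The 43 collagen genes in the table summed to 34018 to 69497 CPM, a 2.04-fold range. Of the imprinted genes, H19 was at 35.6 and 49.99 CPM in 22-5 and 22-9, 1.03 in 22-18 and 0 to 0.245 CPM in animal 23, and MEG3 reached 8.86 CPM in 22-18 with 0 counts in all clones of animal 23.

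Genes restricted to a single clone were few. A gene was counted where 1 clone had at least 50 counts and each of the other 9 had at most 3, and 16 genes met this, with 4 in 22-18, 3 in 22-5 and 0 in 22-17, 23-22 and 23-74. They included the cadherin CDH10 (164 counts) and the ankyrin-repeat gene ANKS1B (174 counts) in 20-15. In 22-9 they included MYCN, a proto-oncogene (99 counts), and the endocytic receptor LRP2 (113 counts). Others were PROZ (288 counts) and COX7B2 (166 counts) in 23-23, and FRMD1 (156 counts) and GLDN, gliomedin (104 counts), in 22-18. The rule is in raw counts, so 22-18, the deepest library, meets it at a lower CPM than other clones. GLDN was at 2.81 CPM there. The highest count was 664, of LOC100848091 in 23-10. The number rested on 22-9: without it 56 genes met the rule, of which 40 were in 22-5. MYCN and LRP2 themselves had at most 2 counts in 22-5.

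Measured against the median of the other 9 clones, 22-9 had 553 genes more than 4-fold above and 93 below, while 22-5 had 532 and 660 and 23-23 had 131 and 300. Without 22-9 the counts for 22-5 were 592 and 673. The 3 genes furthest above that median were partly shared between clones, and KRT8 and KRT19 led in both 22-5 and 22-9. In 17-23 they were EDIL3 (111 CPM), a matrix integrin ligand, ITGA11 (58.3 CPM), a collagen receptor, and the transporter SLC12A7. In 20-15 they were COL21A1, the scavenger receptor SCARA5 (144 CPM, against 0 to 4.59 CPM elsewhere) and MEOX2. In 22-17 and 22-18 NR5A1 was shared (17.7 and 22.0 CPM, with 5.75 CPM in 22-9 and 0 to 0.0616 CPM in the other 7), with KIF26B and the kinase PRKCB (40.9 CPM) added in 22-17. In 22-18 the first was LOC104969678 (79.5 CPM), with MEOX2. In 23-10 they were NRK (34.8 CPM), a kinase of embryonic muscle and placenta, ASIP and KIT, and ASIP and NRK also led in 23-22. In 23-23 they were HEPH (22.16 CPM), a copper-dependent ferroxidase, KIT and CXHXorf57. In 23-74 they were the RAS exchange factor RASGRF2 (71.0 CPM), SHISA2 (67.2 CPM), which modulates Wnt and FGF receptors, and the secreted SCUBE1 (71.7 CPM).

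The only comparison with replicates among N clones is that of the 4 clones of animal 22 with the 4 of animal 23. Of the 13820 genes tested, 25 differed at an adjusted p under 0.05, which is 0.181% of the genes tested (quasi-likelihood test of edgeR, p-values adjusted by Benjamini and Hochberg), with 9 higher and 16 lower in animal 23. All 25 changed at least 2-fold. In all 25 the clones of the animals did not overlap, whereas 7.93% of all genes tested did not overlap. The 25 were chosen by their p-values in these same clones, so their lack of overlap adds no support. A total of 1819 genes had an unadjusted p under 0.05. Clones within an animal are separate cell lines of 1 calf, so these p-values measure the spread between clones and not between calves.

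Named genes among the 25 were few, since 14 carried a LOC identifier, and 2 of these are listed as pseudogenes in the RefSeq annotation. HSPB8, a small heat shock protein that aids the disposal of misfolded proteins, was at 29.3, 24.7, 29.1 and 98.2 CPM in animal 22 and at 0.0630 to 0.183 CPM in animal 23. The difference on the log2 scale was -8.50 ± 0.717 (SE), at an adjusted p of 0.00659 in edgeR. Over its 16 alternatives the adjusted p ran from 6.81e-28 (DESeq2) to 0.147 (limma-voom), where the call was lost. NTRK2, the receptor of the neurotrophin BDNF, was at 9.96 to 22.0 CPM in animal 22 and 0.126 to 0.489 CPM in animal 23, a log2 difference of -5.79 ± 0.456 (SE) with an edgeR adjusted p of 0.00386 (1.08e-29 to 0.0416 over the alternatives). Both were also on in animals 17 and 20, at 31.5 and 76.8 CPM for HSPB8 and 3.83 and 57.1 CPM for NTRK2.

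KIT was the leading named gene in the other direction, with a log2 difference of 7.66 ± 0.71 (SE) and an edgeR adjusted p of 0.00731. Its call was lost in limma-voom (adjusted p = 0.059), the 1 loss in 16 alternatives. RTKN was at 15.6 to 22.7 CPM in animal 23 and 6.91 to 8.36 CPM in animal 22, a log2 difference of 1.18 ± 0.162 (SE) with an edgeR adjusted p of 0.0454, and its call was lost in 13 of 17 alternatives (adjusted p up to 0.125). FNDC3A and TUFT1 were lower in animal 23 by modest amounts, with 51.2 to 60.6 and 36.2 to 43.6 CPM against 111 to 169.8 and 80.1 to 146 CPM (log2 differences of -1.34 and -1.54). The receptor phosphatase PTPRK was at 12.6 to 31.3 CPM in animal 22 and 0.623 to 2.20 CPM in animal 23, and the pseudokinase PRAG1 at 216 to 399 and 44.8 to 90.9 CPM, with the latter at 7.82 and 4.99 CPM in 17-23 and 20-15. SIRPB1 and FAM133A were at 3.34 and 2.39 CPM at most. The calls of FNDC3A and TUFT1 were lost in 5 and 6 of 17 alternatives, those of PTPRK and PRAG1 in 11 and 12 of 17, and those of SIRPB1 and FAM133A in 10 and 9 of 16. Among the LOC genes LOC781339 had the smallest adjusted p of all, 6.05e-05 (edgeR), and was at 24.8 to 32.3 CPM in animal 22 and 1.18 to 1.66 CPM in animal 23.

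No gene of the lists passed in this comparison. Of the 263 list genes kept, 0 passed (edgeR, smallest adjusted p 0.0989), while 47 had an unadjusted p under 0.05, which is 17.9% beside 13.2% of all genes tested, and DESeq2's Wald test passed 24 and limma-voom 0. H19 had that smallest adjusted p, and the clones of the 2 animals did not overlap in 17 of the 263 genes (6.46%, beside 7.93% of all genes). KRT8 and KRT19 were high in 2 of the 4 clones of animal 22 and at 0 counts in the other 2, and so overlapped between animals. Not every gene of the 22-5 and 22-9 pair overlapped. MAP3K9, which is not a list gene, was at 0.280 CPM or more in animal 22 and at 0.156 CPM or less in animal 23.

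The count of 25 depended on single clones. Without 22-9 it was 13, of which 12 were among the 25, without 23-10 or 23-23 it was 9, and without 23-74 it was 12.

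**Figure D5:**
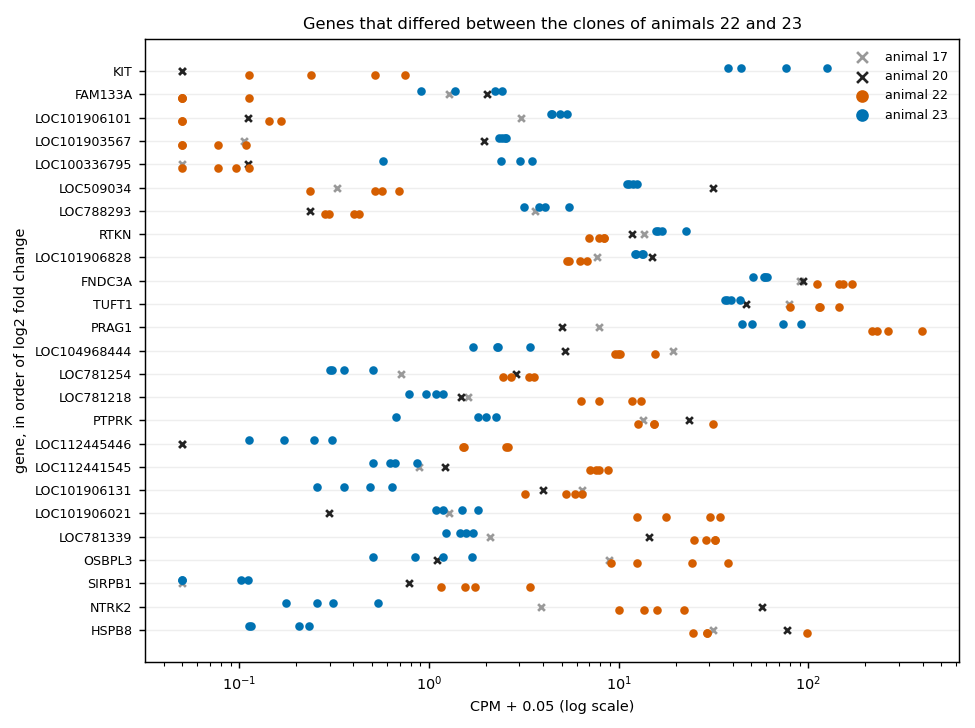
Level of the 25 genes that differed between the clones of animals 22 and 23 (horizontal axis, CPM + 0.05, log scale), in order of log2 fold change, with 1 point per clone; crosses are the clones of animals 17 and 20, which were not in the test. The points of animal 22 and animal 23 do not overlap in any of the 25 genes, which were chosen by a test on these same clones.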

How the data were processed

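The authors made 1 RNA-seq library per clone and deposited raw counts of reads per gene. Per the labels and the methods of the study, reads were demultiplexed with bcl2fastq 2.20, trimmed with Trimmomatic 0.36, aligned to the bovine genome ARS-UCD1.2 with STAR 2.5.2b, and unique reads within exons were counted with featureCounts of Subread 1.5.2. The library kit marks strand, but the strand setting of the counting is not given in the sources used here, so reads of overlapping and antisense genes cannot be told apart, and near-identical family members, LOC genes above all, carry uncertain counts. No transcript length was used. A row without a gene name held 0.154% to 0.333% of a clone's counts and was left out of totals and tests. 0 columns belonged to no sample.

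Groups came from the labels. TMM factors, CPM and log2 CPM (prior count of 2) were computed on the 10 N clones with edgeR 4.0.16 in R 4.3.3, for genes with at least 10 counts in 3 or more clones. The clones of animals 22 and 23 were compared with edgeR's quasi-likelihood test (robust) and Benjamini-Hochberg adjustment at 0.05. They were also compared by an exact permutation test of the share of squared distances. The SE beside a log2 difference was back-calculated, as its size divided by the square root of the quasi-likelihood F statistic. DESeq2 1.42.0, limma 3.58.1, other scalings, filters, prior counts, thinning to the smallest library and leaving out each clone were the alternatives. The tests were checked on simulated data. There edgeR recovered 97 of 100 changes of 4 on the log2 scale and 86 of 100 changes of 2. It also made 15 false calls, so some of its calls can be false. The simulation capped the spread of each gene between clones and placed its changes among the more abundant genes. Genes that vary beyond the cap were thus simulated with less spread than they have, so recovery and false calls in the real data can differ. Clones are separate cell lines but within an animal they share a donor, so p-values measure the spread between clones.

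The members, the 25 gene lists and the tests were chosen with earlier results of these data known. Genes were named by rule: the 20 of largest mean CPM, the 40 of largest variance, the 10 of smallest variance with at least 50 CPM, up to 10 in each direction of smallest adjusted p between animals that passed 2-fold and did not overlap, for each clone the 3 furthest above the median of the others and its restricted gene of highest count, and the lists' members. Genes named from the on and off patterns, from the ratios of clone 22-9, beyond the first restricted gene of a clone, just outside the 40, or beyond the first 10 in a direction were chosen after their values were seen. RefSeq gene tables (ARS-UCD2.0) served for gene names and types. Some genes that the rule names are not reported here.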

Additional observations from a re-analysis of the deposited data

Results flagged for a closer look

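For each gene named, the highest or lowest clone was flagged where its gap to the next took up more of the range of log2 CPM than Dixon's limit allows at 95%, over the 10 clones and over the 4 of an animal. Chance flags about 1 in 20 groups, but many of the genes were named because 1 clone was extreme (the restricted and leading genes above all), so the counts below say nothing against that share. Of 198 genes over the 10 clones 36 were flagged, of 183 within animal 22 it was 15, and of 151 within animal 23 it was 13. All values are CPM of the flagged clone.

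Over the 10 clones, 20-15 was lowest for COL4A1 (0), COL4A2 (0.123), CDH8 (0.123), NEDD4L (0.185), NCAM1 (0.246), SEMA5A (0.308), NTS (0.431) and FLT1 (0.739). It was highest for ANKS1B (10.7), CDH10 (10.1), SCARA5 (144), GATA3 (30.01), CDKN1B (65.8) and PECAM1 (7.21). Clone 22-5 was lowest for the surface genes THY1 (0.409), NT5E (0.526) and ENG (19.8), for JAM3 (0.351), and for COL6A1 (903). Of these, THY1 and JAM3 were among the 34 genes with a near-constant ratio of 22-9 to 22-17. Clone 17-23 was lowest for the neighbouring HOXB2 (1.17), HOXB3 (2.497) and HOXB4 (2.55) and highest for ALPL (19.1) and ITGA11 (58.3). Clone 22-9 was highest for MYCN (6.12), LRP2 (6.99), CA9 (17.0) and EPCAM (0.742). Clone 22-18 was highest for FRMD1 (4.21) and GLDN (2.81) and lowest for SFRP2 (0.0540). Clone 23-23 was highest for PROZ (18.1), COX7B2 (10.5) and PRKCSH (226) and lowest for NES (16.4), and 23-10 was highest for LOC100848091 (40.6).

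Within animal 22, 22-18 was highest for FRMD1 (4.21), HSPB8 (98.2), IGFBP3 (61.0), MEOX2 (34.0) and MYOCD (0.378) and lowest for HOXB7 (5.75). Clone 22-17 was highest for CDH8 (136) and lowest for TOP2B (113), IGFBP5 (0.327) and PECAM1 (0.140). Clone 22-9 was highest for MYCN (6.12), HMGCS1 (718) and CDKN1B (29.5), and 22-5 was lowest for TNC (10.3) and TNFSF18 (0.0584).

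Within animal 23, 23-23 was highest for PROZ (18.1), COX7B2 (10.5), CXHXorf57 (11.1) and THBS1 (1235) and lowest for WT1 (41.0) and PODXL (0.189). Clone 23-10 was lowest for HOXA9 (0.245), HOXA10 (0.183), FAM101A (0.489) and ALCAM (332) and highest for MEOX2 (5.81), and 23-74 was highest for PRKCB (2.91) and lowest for ASIP (0).

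The row of the table that carries no gene name held counts in every clone, a median of 0.222% of the total.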

How the results depend on the processing

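The count of 25 genes between animals 22 and 23 was 5 among genes with at least 10 counts in every clone and 660 with DESeq2's Wald test, which held all 25. In the simulated data, where the spread of genes was capped, DESeq2 made 64 false calls, beside 15 for edgeR and 14 for limma-voom. The cause of the difference in counts was not tested. Leaving out each clone gave 9 to 26, and the other alternatives gave 17 to 26. Of the alternatives for single genes of the 25, 276 kept and 130 lost the call, and 0 turned direction. The share of squared distances was 21.9% (p = 0.114, exact permutation) with 10 counts in every clone, and 25.3% to 32.2% without each clone in turn, with p of 0.0286 to 0.143. It was 25.3% to 28.2% with p unchanged otherwise. Of the 100 most variable genes, 3 remained with 10 counts in every clone, which leaves out genes absent from any clone, 55 with variance-stabilised counts, and 77 to 92 without each clone. Clone-restricted genes numbered 1 at 100 counts against 0, 18 after thinning, and 56 without clone 22-9, an alternative chosen after seeing the data, as was the same omission for the on and off genes (68 in place of 57), the spread within animal 22, the distance of 22-5 from the median, the highest-count genes (20 of 20 remained) and the lists, whose median SDs moved by less than the spread between clones. No paired analysis was possible because replicate numbers follow sample order and pair no clones. Values near 3 counts (0.0810 to 0.197 CPM) limit statements on absence, and intervals for single clones cannot be had from 1 library.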

Other observations

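Further genes among the 40 most variable gave finer splits. WNT4, a Wnt ligand of kidney and gonad, was at 173 CPM in 22-5, 119 in 22-9 and 13.8 to 192 CPM in animal 23, and at 0.166, 0, 8.64 and 1.05 CPM in 17-23, 20-15, 22-17 and 22-18. The secreted NELL2 was highest in 22-18 and 22-17, at 126 and 113 CPM, and TNFSF18, the ligand of GITR, was at 45.6 and 72.9 CPM in the same order. SMOC1, a calcium-binding matrix protein, was at 278 CPM in 17-23 and 55.3 in 20-15, although these clones were each other's nearest. KCNJ5, a potassium channel, was at 242 CPM in 23-22 and 0.0584 in 22-5. ADGRL3, a latrophilin, was at 276 and 73.7 CPM in 22-5 and 22-9 and 33.3 to 73.4 CPM in animal 23.

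Some growth, senescence and inflammatory genes were near absent from all 10 clones. IGF2, an imprinted growth factor, reached 0.888 CPM, PEG3, a paternally expressed zinc finger gene, 0.887 CPM, MMP1, interstitial collagenase, 1.05 CPM, and the cytokine IL6 2.53 CPM at most.

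Across 30 chromosomes and 10096 genes, the median log2 shift of a chromosome in a clone ran from -0.15 to 0.14, where 1 extra copy beside 2 would give 0.58 if levels followed copies.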
